A study of Mus musculus with 9 samples.

Results

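The genes of the voltage-gated sodium and calcium channels were examined in 3 regions of the mouse brainstem. Their members were all probes whose name on the array was SCN, a number and A or B with nothing after it, or began with CACNA, CACNB or CACNG. This gave 83 of the 45281 probes on the array, for 38 genes: 25 probes of sodium channel subunits and 58 of calcium channel subunits. Total RNA came from tissue that the labels call dorsal, ventral and target brainstem, with 3 arrays per region. All 9 arrays were from male Chat-Cre:Ai9 mice aged 8 weeks. In these animals Chat, which encodes choline acetyltransferase, drives Cre recombinase, and the Ai9 allele makes tdTomato, a red fluorescent protein, once Cre has acted, and the animals of all 3 regions share both alleles. Per the file headers, each of 3 mice gave 1 piece of every region, and the array number names the mouse. The labels say neither how the pieces were cut nor what the target region was, and the RNA was of whole tissue, so that fewer cells of a type and less RNA per cell cannot be told apart.

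Voltage-gated sodium channels open on depolarization and drive the rising phase of the action potential. Each has 1 large pore subunit, and beta subunits attach to it and alter its gating and its place in the membrane. Voltage-gated calcium channels turn depolarization into calcium entry, which triggers transmitter release at terminals and shapes burst firing and gene expression in the soma. Their pore subunits fall into L-, P/Q-, N-, R- and T-types, and beta and alpha2delta subunits bring most of them to the membrane. Most of the proteins numbered as gamma subunits act mainly on AMPA-type glutamate receptors. In the brainstem these channels set the pacemaking and burst firing of cranial, monoaminergic and respiratory neurons.

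Levels are log2 intensities after background correction and quantile normalization, and differences are log2 differences between region means with n = 3 arrays per region. A probe counted as above background when its detection p was below 0.05 on an array, and it was tested when this held on at least 3 of the 9 arrays. On the 9 arrays 16703 to 19945 of all probes and 30 to 40 of the 83 channel probes were above background. Of the 83, 38 were tested (45.8%, against 45.2% of all probes). They covered 23 of the 38 genes, and every count below refers to these 38 probes and not to all members. Among the tested probes 15 were above background on all 9 arrays and 23 on fewer. Of the 45 untested probes 26 were above background on no array and 19 on 1 or 2. The error over the beads of 1 probe on 1 array had medians from 2.26% to 5.61% of the intensity for tested channel probes. This is the intensity before background correction, so the error is a larger share of the corrected signal of dim probes. The fewest beads of a tested channel probe on 1 array were 13. Brainstem markers were present: Hoxb3 and Slc6a5 were above background on all 9 arrays, Hoxa2 on 8, Hoxb2 on 5 and Tph2 on 4.

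The genes with and without a tested probe were as follows. Among sodium channel pore genes, Scn1a, Scn3a, Scn8a and Scn10a had tested probes. Scn4a of skeletal muscle, the sodium sensor gene Scn7a, and Scn9a and Scn11a of sensory neurons did not. Of the sodium channel beta genes Scn2b, Scn3b and Scn4b were tested. So were all 3 P/Q-, N- and R-type pore genes, Cacna1a, Cacna1b and Cacna1e, and all 4 calcium channel beta genes, Cacnb1 to Cacnb4. Of the L-type pore genes only Cacna1d was tested. None of the 6 Cacna1c probes was above background on more than 2 arrays. Cacna1f of retina was above it on 1 array at most, and Cacna1s of skeletal muscle on none. Of the T-type pore genes Cacna1g and Cacna1h were tested and Cacna1i was above background on no array. Cacna2d1 and Cacna2d3, of the alpha2delta genes, were tested, and Cacna2d4 by its 1 probe of that name was not. Of the gamma genes Cacng3, Cacng5 and Cacng7 were tested, while Cacng1, Cacng2, Cacng4, Cacng6 and Cacng8 were not. Among 8 skeletal muscle markers 6 were above background on no array (Ckm, Acta1, Myh1, Myh4, Tnnc2 and Tnni2), and Mylpf and Des were above it on all 9. Mylpf was 1.43 higher in dorsal than in ventral (limma adjusted p = 0.0353).

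**Figure D1:**
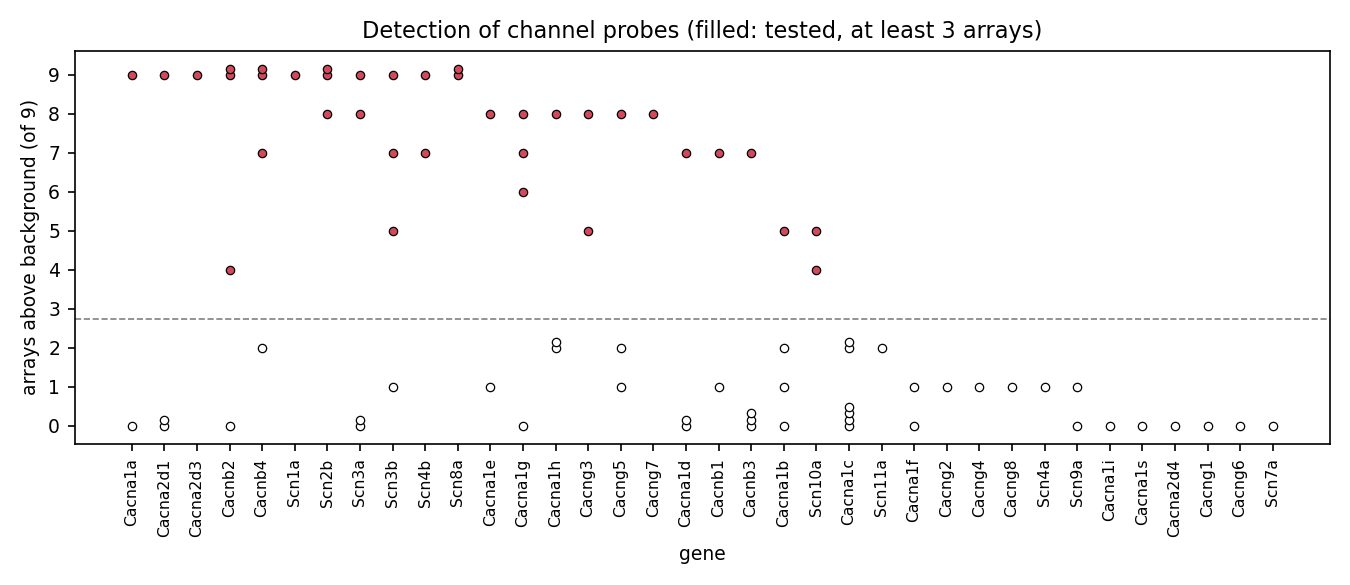
Number of arrays (y axis, of 9) on which each of 81 channel probes of 36 genes was above background, by gene (x axis). Each point is 1 probe, and points at the same height are stacked. Filled points are the 37 tested probes among them. Genes from Cacna1c to the right end of the axis had no tested probe.

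Between the target and dorsal regions no channel probe passed the test (0 of 38 at a limma adjusted p below 0.05, beside 0.0586% of all 20461 tested probes, with 0.0440% higher and 0.0147% lower in target, and 2 of 38 at an unadjusted p below 0.05, beside 9.60%). Between target and ventral 3 of 38 passed, 1 higher and 2 lower in target, or 7.89% beside 1.78% of all tested probes, of which 1.17% were higher and 0.616% lower. Between dorsal and ventral 5 of 38 passed, 3 higher and 2 lower in dorsal, or 13.2% beside 7.98%, of which 4.06% were higher and 3.92% lower. Counting a gene by any of its tested probes, 6 probes of 6 genes passed in at least 1 pair. Among the sodium genes these were the pore genes Scn1a, Scn8a and Scn10a and the beta gene Scn3b. Among the calcium genes they were the pore gene Cacna1g and the beta gene Cacnb4. Counting each of the 23 genes by its brightest tested probe, 0 passed between target and dorsal and 0 between target and ventral. By that count 3 of 23 passed between dorsal and ventral: Cacna1g and Scn10a, higher in dorsal, and Scn1a, lower in dorsal. Blocked by mouse, the fit called 1 probe in place of 3 between target and ventral and again 5 between dorsal and ventral. Between target and ventral the count was 1 without any 1 array other than dorsal array 1 (3 calls) and ventral array 3 (2 calls). Between dorsal and ventral it was 3 without dorsal array 1 and 2 without dorsal array 2. The median difference of the 38 probes was -0.08 for target minus dorsal, -0.09 for target minus ventral and -0.03 for dorsal minus ventral, beside -0.02, 0.02 and 0.04 over all tested probes. The 3 arrays of one region lay wholly above or below those of the other for 6 of 38 channel probes between target and dorsal (15.8%, beside 17.5% of all tested probes). This held for 9 between target and ventral (23.7% beside 21.1%) and for 9 between dorsal and ventral (23.7% beside 26.7%). All 3 mice differed in the same direction for 13 of 38 between target and dorsal (34.2% beside 33.8%), 13 between target and ventral (34.2% beside 39.7%) and 16 between dorsal and ventral (42.1% beside 42.8%). All 3 comparisons use the same 9 arrays, and any 2 of them share 1 region.

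**Figure D2:**
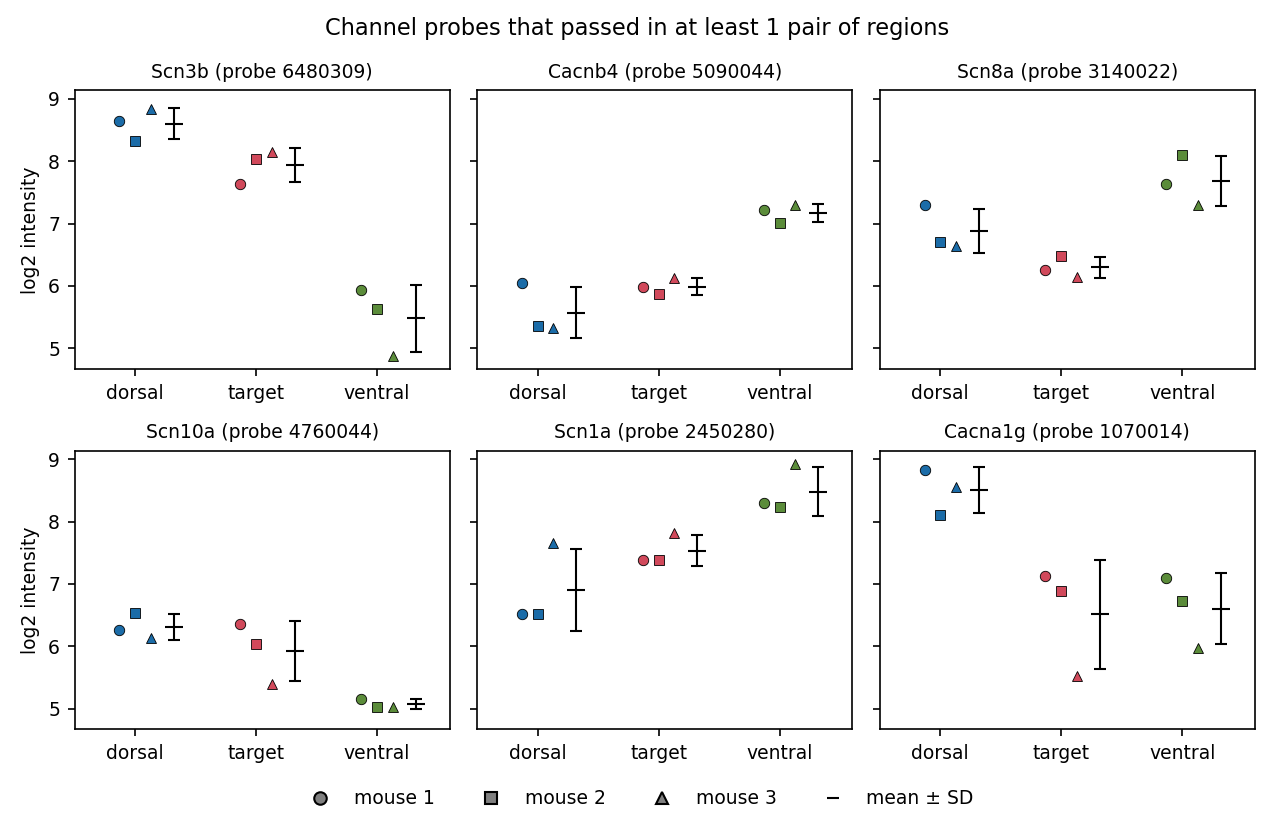
Log2 intensity (y axis) on each of the 9 arrays for the 6 channel probes that passed in at least 1 pair of regions (x axis, regions). Symbols mark the mouse, and the bars to the right of the points are the mean ± SD of 3 arrays. Scn3b and Scn10a were lowest in ventral, Cacnb4, Scn8a and Scn1a highest in ventral, and Cacna1g highest in dorsal.

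The beta subunit gene Scn3b had the largest difference of all channel probes. The protein attaches to the pore subunit without a disulfide bond and shifts its inactivation. Its probe 6480309 read 8.65, 8.33 and 8.83 in dorsal, 7.63, 8.04 and 8.15 in target and 5.93, 5.63 and 4.87 in ventral. The ventral arrays lay below all others by at least 1.70, and 1 of the 3 was above background. The dorsal level was 8.72-fold the ventral level (log2 difference 3.12, SE 0.29, limma adjusted p = 0.000616). The target level was 5.51-fold the ventral level (2.46, SE 0.29, limma adjusted p = 0.00555). Both folds are against a measured ventral mean in which 2 of 3 arrays were at background. Within each mouse the dorsal level exceeded the ventral level by 2.72, 2.70 and 3.96, and the target level exceeded it by 1.70, 2.41 and 3.27. Target was 0.66 below dorsal, which did not pass (limma adjusted p = 0.513). Both calls held under all 14 alternatives that could be computed, with target minus ventral between 1.10 and 2.69 and dorsal minus ventral between 1.55 and 3.43.

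The other probes of Scn3b did not show a difference of that size. Probe 5900474, above background on all 9 arrays, read 7.46 ± 0.25 (SD, n = 3) in dorsal, 7.71 ± 0.05 in target and 6.89 ± 0.59 in ventral. It was 0.82 higher in target than in ventral (limma adjusted p = 0.189) and 0.57 higher in dorsal than in ventral (limma adjusted p = 0.281). Probe 1940632 gave 0.42 (limma adjusted p = 0.638) and -0.15 (limma adjusted p = 0.860) in the same comparisons, with 5 of 9 arrays above background. The remaining probe, 5810592, was above background on 1 array and was not tested. The transcript that each probe reads was not looked up here.

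Scn1a, which encodes a pore subunit that fast-spiking inhibitory neurons depend on, was lower in dorsal than in ventral. Its only probe, 2450280, read 6.51, 6.52 and 7.66 in dorsal, 7.38, 7.39 and 7.82 in target and 8.29, 8.24 and 8.93 in ventral. The ventral arrays lay above all others, and dorsal and target overlapped. Dorsal was below ventral (log2 difference of dorsal minus ventral -1.59, SE 0.34, limma adjusted p = 0.0217), and ventral was the higher region in each of the 3 mice. The call was lost without dorsal array 1 (adjusted p = 0.0727), dorsal array 2 (0.0789) or ventral array 3 (0.0644), and with arrays centred on their medians (-1.20, adjusted p = 0.0545). Target was 0.95 below ventral (SE 0.34, limma adjusted p = 0.205) and 0.63 above dorsal (SE 0.34, limma adjusted p = 0.593).

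Scn8a encodes the pore subunit that is concentrated at axon initial segments and nodes of Ranvier, and it was lower in target than in ventral by 1 of its 2 probes. Probe 3140022 read 7.29, 6.70 and 6.64 in dorsal, 6.26, 6.48 and 6.15 in target and 7.64, 8.10 and 7.30 in ventral. The target arrays were the lowest and the ventral arrays the highest, with no overlap between any pair of regions. The ventral level was 2.60-fold the target level (log2 difference of target minus ventral -1.38, SE 0.26, limma adjusted p = 0.0356, blocked by mouse 0.0598). The call held without dorsal array 1 or ventral array 3 and was lost without any 1 of the other 7 arrays (adjusted p from 0.0586 to 0.136). Dorsal was 0.80 below ventral (SE 0.26, limma adjusted p = 0.100). The brighter probe, 1410707, read 9.52 ± 0.24 in dorsal, 9.37 ± 0.03 in target and 9.70 ± 0.12 in ventral. Its difference between target and ventral was -0.33 (SE 0.18, limma adjusted p = 0.417). It had the same direction, with target arrays below the ventral arrays by at least 0.17 and within-mouse differences of -0.44, -0.34 and -0.20.

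Scn10a, a pore gene best known from pain-sensing neurons of sensory ganglia, was dim. Probe 4760044 read 6.26, 6.54 and 6.13 in dorsal, 6.35, 6.03 and 5.40 in target and 5.15, 5.03 and 5.02 in ventral, where it was at background on all 3 arrays. The ventral arrays lay below all others, and dorsal and target overlapped. The dorsal mean of 6.31 was at least 1.42-fold the ventral level. Here the dorsal mean was set, on each ventral array, against the lowest level among probes above background. The test was of the measured means and not of this bound (limma adjusted p = 0.0162). The measured ventral mean was 5.07, with an SD of 0.08 among values at background. The probe was tested because of its dorsal and target arrays alone. Without dorsal array 2 the adjusted p was 0.0655. Target, with 2 of 3 arrays above background, was at least 1.09-fold the ventral level, and the difference of the measured means did not pass (limma adjusted p = 0.127). The second probe, 270050, was above background on 4 of 9 arrays and gave 0.05 for dorsal minus ventral (SE 0.43, limma adjusted p = 0.962).

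Of the other sodium pore genes, Scn3a, known for its expression in the developing brain, read 7.65 ± 0.57 in dorsal, 6.70 ± 0.19 in target and 7.06 ± 1.02 in ventral by probe 7150142. The arrays of mouse 1 read 8.22 in dorsal and 8.21 in ventral, against 6.55 in target. No pair passed (lowest limma adjusted p = 0.521), and probe 1240400 gave 0.53 for target minus dorsal where the first gave -0.95. Scn2a is named SCN2A1 on the array and was outside the rule, and none of its 3 tested probes passed in any pair. Its probe 4810440 was 1.65 higher in dorsal than in ventral (limma adjusted p = 0.0910), probe 2370170 was 0.68 higher (0.144), and probe 2750156 gave -0.26 (0.526). In the RefSeq table Scn3a, Scn1a, Scn9a and Scn7a lie on the same chromosome within a few genes of each other, and Scn10a and Scn11a are direct neighbours on another chromosome. Scn1a and Scn10a, one from each group, passed in opposite directions between dorsal and ventral.

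The sodium beta genes Scn4b and Scn2b passed in no pair. Scn4b, whose protein is linked to a fast resurgent current in repeatedly firing neurons, read 11.48 ± 0.04 in dorsal, 11.35 ± 0.17 in target and 11.72 ± 0.15 in ventral by its brighter probe, 6220543. The largest difference of this probe, -0.36 for target minus ventral, had an SE of 0.17 and a limma adjusted p of 0.340. Scn2b, whose protein binds the pore by a disulfide bond, read 10.96 ± 0.10, 10.74 ± 0.05 and 10.89 ± 0.19 in dorsal, target and ventral by probe 1820706. The dorsal arrays, from 10.87 to 11.07, lay above the target arrays, from 10.68 to 10.78, at a difference of -0.22 (SE 0.17, limma adjusted p = 0.709).

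Cacna1g encodes a T-type pore subunit, a low-threshold channel that supports rebound bursts, for example in thalamus and inferior olive. It was higher in dorsal than in ventral by probe 1070014, which read 8.83, 8.10 and 8.55 in dorsal, 7.13, 6.88 and 5.52 in target and 7.10, 6.72 and 5.97 in ventral. The dorsal arrays lay above all others by at least 0.97, and target and ventral overlapped. The dorsal level was 3.73-fold the ventral level (log2 difference 1.90, SE 0.44, limma adjusted p = 0.0318). The dorsal level was 3.96-fold the target level (target minus dorsal -1.99, SE 0.44), which did not pass (limma adjusted p = 0.182). In the table that the authors quantile-normalized, without background correction, that difference was -1.07 and passed (adjusted p = 0.0284). The call between dorsal and ventral was lost without dorsal array 1 (0.0984), 2 (0.0558) or 3 (0.0910), without ventral array 2 (0.0712) or 3 (0.0880), and when dim probes were kept (0.0611).

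The other tested probes of Cacna1g did not agree on a direction. Probe 6660437 gave 0.93 for dorsal minus ventral (SE 0.36, limma adjusted p = 0.164) and probe 3190692 gave -0.61 (SE 0.32, limma adjusted p = 0.303). Both were dimmer, above background on 6 and 7 of 9 arrays. Without dorsal array 3, probe 6660437 gave 1.31 and passed (adjusted p = 0.0492). Cacna1h, the other tested T-type gene, read 6.72, 7.32 and 6.32 in dorsal, 6.22, 6.38 and 6.18 in target and 5.82, 6.39 and 5.71 in ventral. It was 0.81 higher in dorsal than in ventral (SE 0.28, limma adjusted p = 0.121), and dorsal was the higher region in each of the 3 mice. With arrays centred on their medians it was 1.14 higher and passed (adjusted p = 0.0237). In that setting the median difference of all tested probes in this comparison was 0.36, beside 0.04 with quantile normalization.

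Cacnb4, whose loss causes ataxia and seizures in the lethargic mouse, encodes a beta subunit that carries pore subunits to the membrane. Its probe 5090044 read 6.05, 5.35 and 5.33 in dorsal, 5.98, 5.87 and 6.13 in target and 7.21, 7.01 and 7.29 in ventral. The ventral arrays lay above all others by at least 0.88, and dorsal and target overlapped. The ventral level was 3.03-fold the dorsal level (log2 difference of dorsal minus ventral -1.60, SE 0.22, limma adjusted p = 0.00350), and this call held under all 14 alternatives that could be computed. In dorsal only array 1 was above background, so this fold too is against a mean that is mostly at background. The ventral level was 2.26-fold the target level (target minus ventral -1.18, SE 0.22, limma adjusted p = 0.0375, blocked by mouse 0.0697). That call held without dorsal array 1 and was lost without any 1 of the other 8 arrays (adjusted p from 0.0588 to 0.117), and with median centring (0.0928).

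Cacnb4 had 2 brighter probes, both above background on all 9 arrays. Probe 1850338 read 9.03, 9.32 and 9.13 in dorsal, 9.34, 9.27 and 8.91 in target and 10.03, 10.03 and 9.33 in ventral. It was 0.64 lower in dorsal than in ventral (SE 0.23, limma adjusted p = 0.144, and 0.0459 at -0.87 without ventral array 3). Probe 6900753 read 9.55 ± 0.21, 9.65 ± 0.17 and 9.68 ± 0.09 in dorsal, target and ventral, with differences from -0.13 to 0.10 (lowest limma adjusted p = 0.726). The untested probe 7610551 was above background on 2 ventral arrays and on no other array.

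**Figure D3:**
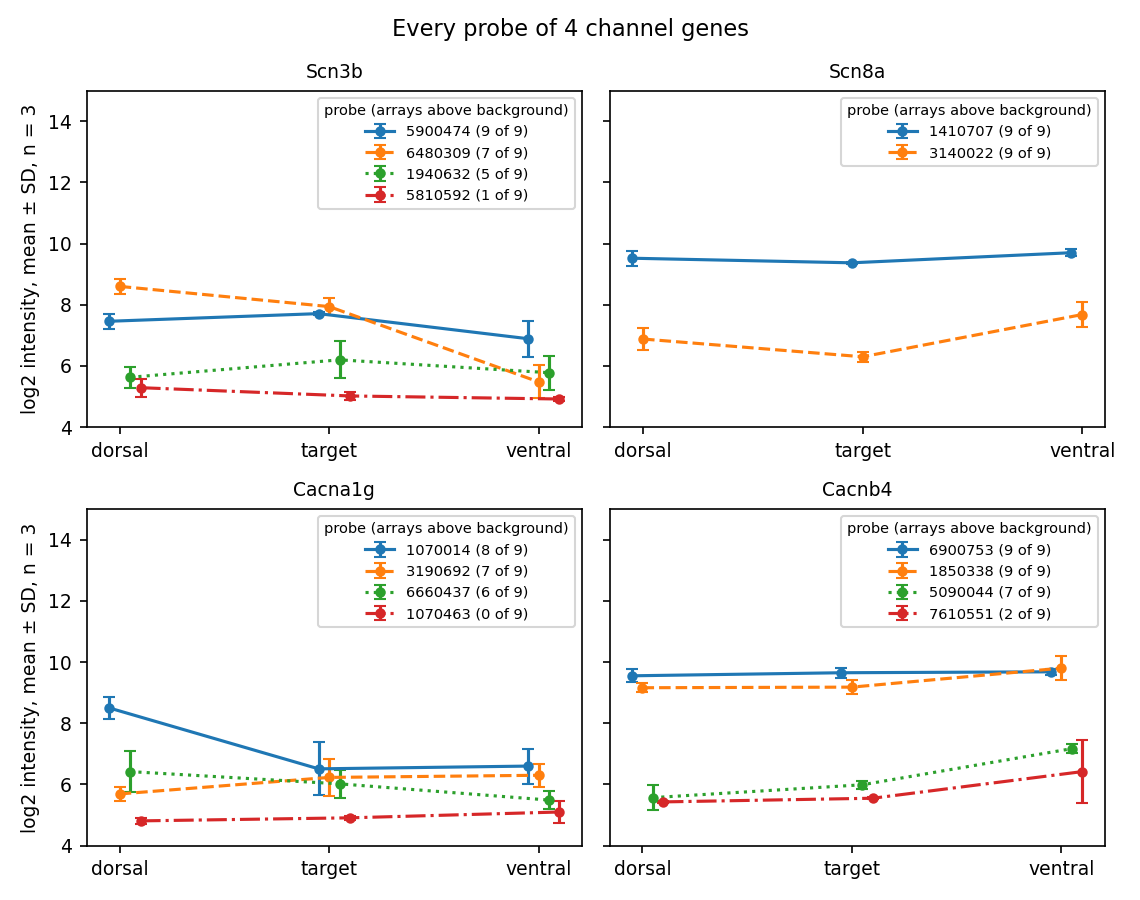
Mean ± SD of the log2 intensity (y axis, n = 3 arrays) in each region (x axis) for every probe of Scn3b, Scn8a, Cacna1g and Cacnb4. Lines join the means of 1 probe as a guide, and the legend gives the number of arrays above background. The probe that passed differed by 3.12 for Scn3b, 1.90 for Cacna1g and -1.60 for Cacnb4 in dorsal minus ventral and by -1.38 for Scn8a in target minus ventral, and other probes of the same genes ran flatter or the other way.

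Of the 10 channel genes with more than 1 tested probe, all tested probes had the same sign in 4 genes for target minus dorsal, 6 for target minus ventral and 5 for dorsal minus ventral. The same share over all genes of the array was not computed, so these counts cannot be read as particular to channel genes. Of the 6 called genes, Scn1a had no second probe. For the other 5 no second tested probe passed in the comparison where the first did.

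The promoter windows of the called genes that the RefSeq table held are shown to set the genes that were highest in ventral beside one that was lowest there. Each has 300 bases, from 250 before to 50 after an annotated start on mouse build GRCm38.p6, read 5′ to 3′ along the gene's strand. Capitals mark each CG dinucleotide, the site of CpG methylation. For Scn8a and Cacnb4 the window of the most upstream listed start is given. The windows are Scn1a at chr2:66440788-66441087, minus strand, Scn8a at chr15:100870395-100870694, plus strand, Cacnb4 at chr2:52676094-52676393, minus strand, and Scn10a at chr9:119718983-119719282, minus strand.
Scn1a: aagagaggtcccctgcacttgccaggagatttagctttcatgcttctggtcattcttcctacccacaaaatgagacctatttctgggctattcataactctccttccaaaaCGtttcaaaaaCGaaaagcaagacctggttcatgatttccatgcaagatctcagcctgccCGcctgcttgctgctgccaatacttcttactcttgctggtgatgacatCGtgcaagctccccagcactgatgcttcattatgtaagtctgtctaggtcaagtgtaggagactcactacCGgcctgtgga
Scn8a: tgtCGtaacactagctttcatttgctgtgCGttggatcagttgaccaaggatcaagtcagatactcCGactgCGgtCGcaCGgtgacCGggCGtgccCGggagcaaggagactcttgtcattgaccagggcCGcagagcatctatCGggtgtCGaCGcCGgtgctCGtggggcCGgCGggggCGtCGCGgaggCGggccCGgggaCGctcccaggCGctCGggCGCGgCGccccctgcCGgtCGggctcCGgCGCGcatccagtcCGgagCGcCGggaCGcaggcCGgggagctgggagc
Cacnb4: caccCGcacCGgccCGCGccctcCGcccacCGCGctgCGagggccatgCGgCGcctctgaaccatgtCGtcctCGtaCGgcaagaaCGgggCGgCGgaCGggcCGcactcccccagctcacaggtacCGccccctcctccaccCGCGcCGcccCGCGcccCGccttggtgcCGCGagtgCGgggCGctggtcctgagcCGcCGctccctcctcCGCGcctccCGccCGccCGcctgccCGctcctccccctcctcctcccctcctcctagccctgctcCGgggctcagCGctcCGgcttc
Scn10a: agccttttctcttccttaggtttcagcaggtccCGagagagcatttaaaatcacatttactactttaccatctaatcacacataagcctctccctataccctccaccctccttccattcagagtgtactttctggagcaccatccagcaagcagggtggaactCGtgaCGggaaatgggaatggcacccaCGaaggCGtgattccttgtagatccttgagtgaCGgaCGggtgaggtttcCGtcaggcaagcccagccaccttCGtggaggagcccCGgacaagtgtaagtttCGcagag

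Windows were found for 28 of the 38 channel genes. The 3 windows shown for genes highest in ventral were unlike in base composition. Scn1a had 5 CG dinucleotides, Scn8a 38 and Cacnb4 40, beside a median of 7 over all 32851 windows, of which 3.91% had at least as many as Cacnb4 and 4.95% at least as many as Scn8a. Scn10a had 11. The letters GGGCGG, searched on both strands, occurred 6 times in the Cacnb4 window and in none of the other 3, and were in 35.7% of all windows. Each GGGCGG holds 1 of the CG dinucleotides. These counts depend on the start shown: the windows at the other listed starts held 5 and 27 CG dinucleotides for Cacnb4 and 12 for Scn8a, and no GGGCGG. The letters TATAAA, also on both strands, were in none of the 4 windows and in 13.6% of all windows.

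Among the remaining calcium channel genes no probe passed in any pair. Cacna2d3, an alpha2delta gene, came nearest: its only probe read 9.07, 8.36 and 9.07 in dorsal, 8.87, 8.94 and 8.65 in target and 9.44, 9.44 and 9.61 in ventral. The ventral arrays lay above all others. The difference was -0.66 for dorsal minus ventral (SE 0.22, limma adjusted p = 0.113) and -0.68 for target minus ventral (SE 0.22, limma adjusted p = 0.173). In the table the authors quantile-normalized, the first of these passed at -0.52 (adjusted p = 0.0444). Cacna2d1, whose protein binds gabapentin, read 7.67 ± 0.28 in dorsal, 7.48 ± 0.18 in target and 7.72 ± 0.25 in ventral, where the largest difference was -0.24 for target minus ventral (SE 0.21, limma adjusted p = 0.642). A probe that the array lists under the clone name 5730412N02RIK is a synonym of Cacna2d4 in the RefSeq table and lay outside the rule. It read 7.24 ± 0.25 in dorsal, 6.92 ± 0.21 in target and 6.19 ± 0.52 in ventral, a difference of 1.05 for dorsal minus ventral (SE 0.28, limma adjusted p = 0.0505).

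Of the pore genes tied to transmitter release, the R-type gene Cacna1e read 6.04, 5.80 and 6.26 in dorsal, 6.56, 6.30 and 7.38 in target and 5.60, 6.10 and 6.57 in ventral. The target arrays lay above the dorsal arrays by 0.04 at the closest point. The difference was 0.71 (SE 0.33, limma adjusted p = 0.535) against dorsal and 0.65 (SE 0.33, limma adjusted p = 0.382) against ventral. The P/Q-type gene Cacna1a read 6.27 ± 0.22 in dorsal, 6.39 ± 0.86 in target and 6.09 ± 0.28 in ventral, with differences of at most 0.29 (lowest limma adjusted p = 0.767). The N-type gene Cacna1b was at or near background, with 5 of 9 arrays above it for probe 1740722, and its ventral arrays spread from 4.91 to 7.55. The L-type gene Cacna1d, a pacemaking channel gene, gave differences from -0.47 to -0.05 (lowest limma adjusted p = 0.545).

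Among the beta genes Cacnb2, by its brightest probe 130463, read 7.66, 8.69 and 8.77 in dorsal, 8.63, 8.56 and 8.41 in target and 7.78, 8.41 and 7.84 in ventral. Target was 0.52 above ventral (SE 0.31, limma adjusted p = 0.457), and dorsal array 1 stood apart from the other dorsal arrays. Cacnb1 and Cacnb3 gave differences between -0.28 and 0.37 (lowest limma adjusted p = 0.522). Of the gamma genes that regulate AMPA receptors, Cacng7 gave differences from -0.09 to -0.04 (lowest limma adjusted p = 0.914), and the 2 probes of Cacng3 had opposite signs for target minus dorsal (-0.37 and 0.26). Cacng5 read 8.43, 6.77 and 6.75 in dorsal, 6.11, 6.76 and 6.04 in target and 8.40, 5.78 and 6.48 in ventral. The dorsal and ventral arrays of mouse 1 were the highest, the target array of that mouse was not, and no pair passed (lowest limma adjusted p = 0.671).

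**Figure D4:**
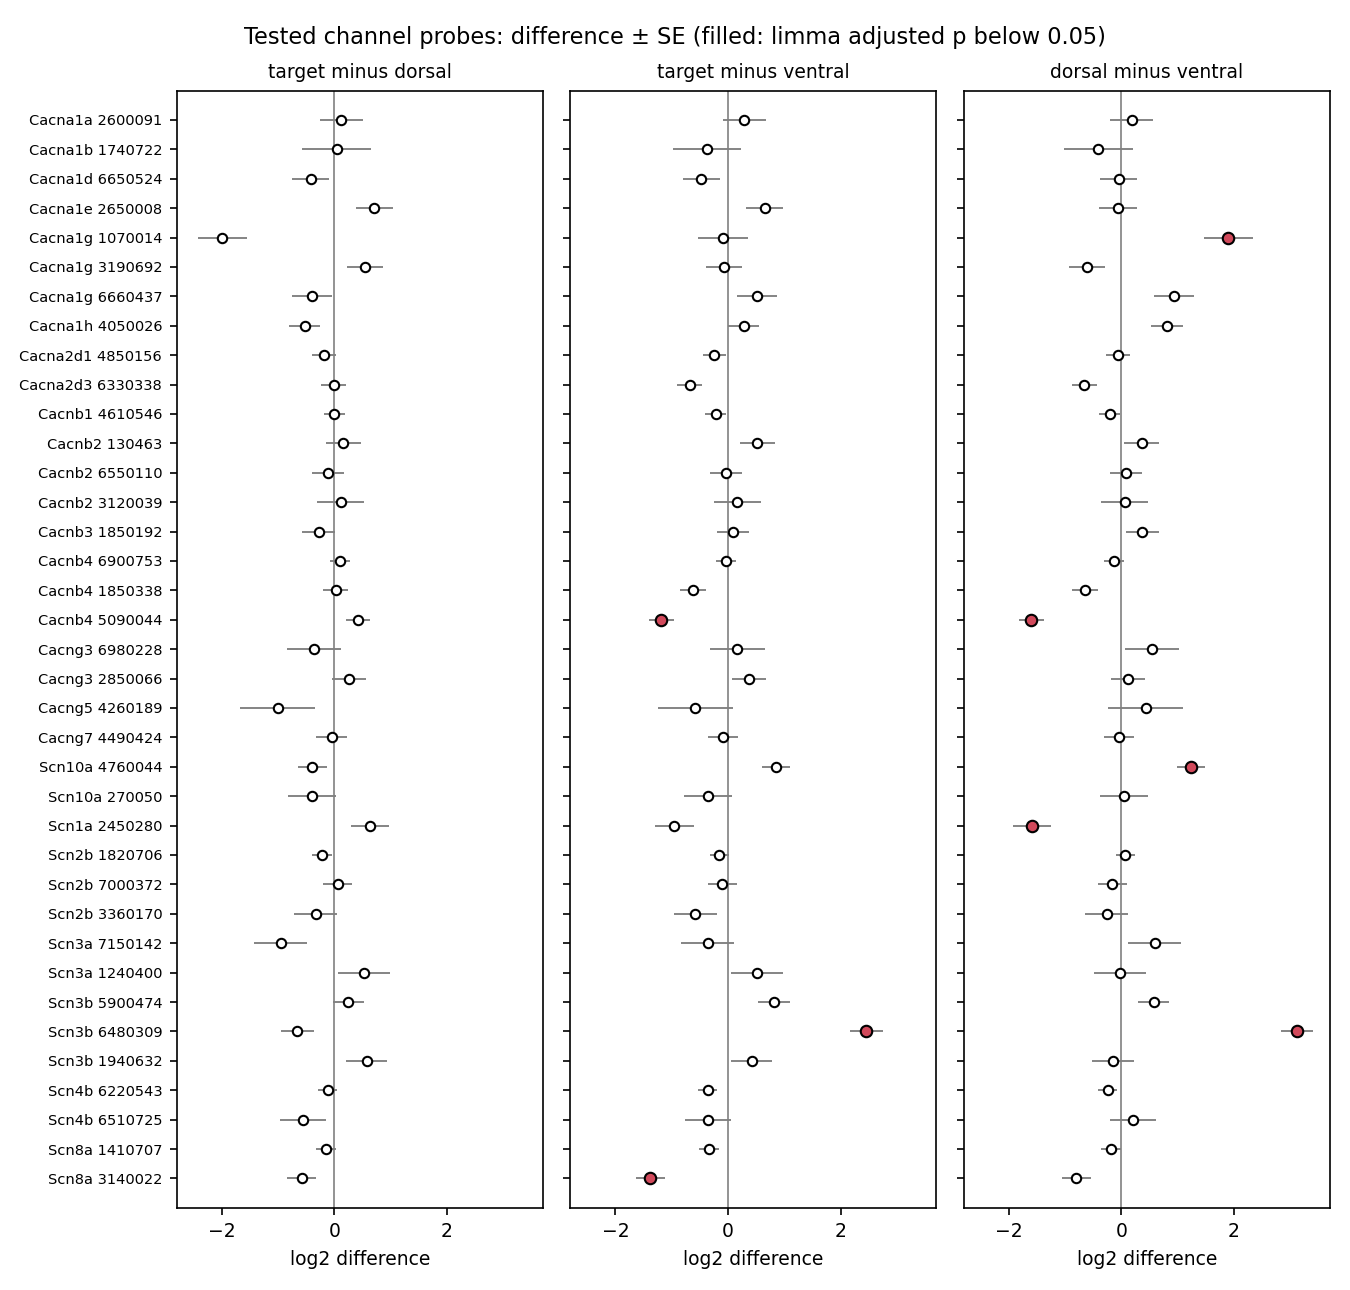
Log2 difference ± SE (x axis) of 37 tested channel probes (y axis, gene and probe) for target minus dorsal, target minus ventral and dorsal minus ventral, from 1 limma fit of 9 arrays. Filled points passed at an adjusted p below 0.05: 0, 3 and 5 probes. Most differences lie within 1 on either side of 0.

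Partner proteins of the channels were read from a list of 38 genes, 1 probe per gene. Of 16 sodium channel partners 13 were tested. Fgf13, whose protein binds the tail of sodium channel pores, was the 1 that passed. Its probe 2320184 read 8.40, 8.46 and 8.65 in dorsal, 8.90, 8.78 and 8.93 in target and 7.99, 7.76 and 7.82 in ventral. The target arrays were the highest and the ventral arrays the lowest, with no overlap. Target exceeded ventral by 1.02 (SE 0.16, limma adjusted p = 0.0205, blocked by mouse 0.0564). Dorsal exceeded ventral by 0.65 (SE 0.16, limma adjusted p = 0.0417, blocked by mouse 0.0733). The first call was lost without ventral array 2 or 3 or any 1 target array (adjusted p from 0.0553 to 0.0935), and the second without any 1 of the 9 arrays (from 0.0580 to 0.139). Of all 15 alternatives the first call held in 8, with a highest adjusted p of 0.0945, and the second in 5. The other tested Fgf13 probe, 5340138, went the other way, at -0.38 (limma adjusted p = 0.739) and -0.68 (limma adjusted p = 0.427).

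The other 12 tested sodium channel partners passed in no pair. They include the ankyrin gene Ank3, which anchors channels at the initial segment and by its brightest probe gave differences of at most 0.14 (lowest limma adjusted p = 0.760), and Nfasc, of the same site and of nodes, by its brightest probe with at most 0.10 (lowest limma adjusted p = 0.881). Other probes of both genes differed more, in both directions, and passed in no pair. For dorsal minus ventral Ank3 probe 5130482 gave -0.61 (limma adjusted p = 0.103) and probe 580612 gave 0.50 (limma adjusted p = 0.175). For target minus ventral Nfasc probe 730382 gave -0.93 without overlap (limma adjusted p = 0.0965) and probe 940079 gave 0.59 (limma adjusted p = 0.465). Of 22 calcium channel partners 15 were tested and none passed in any pair. The largest was Camk2a, a calcium-activated kinase gene, at 1.52 for target minus ventral (SE 0.36, limma adjusted p = 0.0708). It passed at 1.18 with a larger offset in the background correction (adjusted p = 0.0443) and at 0.70 in the authors' quantile-normalized table (0.0318). Between target and dorsal the largest were Camk2a at 0.81 (limma adjusted p = 0.517) and the AMPA receptor auxiliary gene Cnih3 at 0.63 (limma adjusted p = 0.558). The median difference of the tested sodium partners was 0.06, 0.01 and -0.01 for target minus dorsal, target minus ventral and dorsal minus ventral, and that of the calcium partners 0.07, 0.02 and -0.06.

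Markers of cell types moved with some of these comparisons. The summed level of 7 oligodendrocyte markers was 14.27 to 14.54 in dorsal, 14.83 to 14.95 in target and 15.12 to 15.31 in ventral, without overlap, and 4 of the 7, among them Mbp, Mobp and Cldn11, were lower in dorsal than in ventral at a limma adjusted p below 0.05. The other 3 did not pass: Mog gave 0.73 for dorsal minus ventral (limma adjusted p = 0.0813, no overlap), Mag 0.24 (0.635) and Cnp -0.79 (0.123). The summed level weights the brightest probes most. By their means Scn1a and Cacnb4 were ordered in the same way as this sum, with overlap between dorsal and target. So were the neuronal markers Stmn2 (9.86, 10.52 and 11.03 in dorsal, target and ventral), Eno2 (11.46, 11.97 and 12.20) and Syt1 (9.39, 9.70 and 9.86). The other tested neuronal markers were not. The part of myelinating cells or of neurons in the differences of Scn1a and Cacnb4 was not tested. Of 9 neuronal markers tested 2 passed as lower in dorsal than in ventral, Eno2 (-0.74, limma adjusted p = 0.0339) and Stmn2 (-1.17, limma adjusted p = 0.0164). By sign 6 of the 9 were lower in dorsal and 3 higher. The higher ones include Snap25 (0.14, limma adjusted p = 0.641) and Map2 (0.15, limma adjusted p = 0.635), each without overlap. The summed level of the 9 was 14.27 to 14.58 in dorsal, 14.26 to 14.51 in target and 14.50 to 14.66 in ventral. Cspg4, a marker of oligodendrocyte precursors, was higher in dorsal than in ventral (limma adjusted p = 0.00839), and the brainstem glycine transporter gene Slc6a5 gave -0.81 (limma adjusted p = 0.0277). Slc6a5 was the only 1 of 6 brainstem markers that passed. In that comparison 2 of the 6 were higher in dorsal and 4 lower, with differences from -0.81 to 0.88. The 7 astrocyte, 4 tested microglial and 4 endothelial markers held no gene that passed in any pair. Of 7 cerebellar markers Calb1 and Gabra6 were above background on no array, and none of the 4 tested passed. Pcp2, of Purkinje cells, read 6.01 ± 0.57 in dorsal, 7.35 ± 0.21 in target and 7.67 ± 0.92 in ventral, with the dorsal arrays below all others (dorsal minus ventral -1.67, limma adjusted p = 0.0521), and its part in the differences of Scn1a and Cacnb4 was not tested. Cbln1 gave 1.17 in the same comparison (limma adjusted p = 0.0889). The summed levels, carried mostly by Pvalb, overlapped between all regions, at 11.27 to 11.67 in dorsal, 11.16 to 11.51 in target and 11.23 to 11.63 in ventral.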

How the data were processed

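The authors' tables hold linear intensities of an Illumina mouse whole-genome BeadChip, made with GenomeStudio 1.6.0 per the file headers. One export is unnormalized and the other quantile-normalized. The deposited detection score, a fraction from 0 to 1 per probe and array, was turned into a detection p as 1 minus the score. The deposited export also gives each probe's bead count. Another deposited intensity table was equal to the unnormalized export, the series matrix to the quantile-normalized one (largest difference 0 for each), and no 2 arrays held identical values. Labelled cRNA was made from total RNA, per the labels' protocols.

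From the unnormalized intensities, limma 3.58.1 in R 4.3.3 corrected the background (normexp from the detection p, offset 16), quantile-normalized the arrays and took log2. All 20461 tested probes entered 1 fit of 9 arrays (lmFit and eBayes) on region alone, and Benjamini-Hochberg adjustment ran over all of them within each pair of regions. Adjusted p-values named limma in the text are from this fit. Only the fit was tested on simulated log2 values. Background correction, normalization and the detection filter were not tested in that way. Where a region was at background on all 3 arrays, the fold is a bound. The mouse was taken from the file headers and fitted as a block as an alternative. Deviations of same-mouse arrays from their region means correlated between -0.10 and 0.15, against -0.16 to 0.22 for different mice. Given in full were the probes called in any pair and those of lowest p, up to 12, and of partner genes up to 4 called per pair or the 2 largest; other values given were chosen after they were seen. The members and lists were chosen with earlier results of these data known. Gene names are those of the array, updated through the RefSeq table of GRCm38.p6. Probe sequences were not used here. For genes in the partner and marker lists the brightest tested probe was taken. Some members and markers entered every count and fit but are not reported here by name or drawn.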

Additional observations from a re-analysis of the deposited data

How the results depend on the processing

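Alternatives changed 1 choice at a time. Of 648 recomputed differences of named channel and partner probes, 577 kept their sign and their side of the threshold, 46 lost a call, 7 gained one and 18 changed sign, none of these a called difference. The cause was not tested. With median centring the median difference of all tested probes was -0.35, 0.02 and 0.36 for target minus dorsal, target minus ventral and dorsal minus ventral. With quantile normalization it was -0.02, 0.02 and 0.04. Under median centring the sign changed for target minus dorsal of Scn3b probe 5900474 (-0.15), Cacnb4 probe 1850338 (-0.43) and Fgf13 (-0.07). It also changed for target minus ventral of Cacna1g probe 1070014 (0.02), and for dorsal minus ventral of Cacna1e (0.18) and Cnih3 (0.23). Leaving out 1 array moved target minus dorsal from -0.25 to 0.11 for Cacna2d3 and from -0.07 to 0.15 for Cacnb4 probe 1850338, target minus ventral from -0.40 to 0.41 for Cacna1g probe 1070014, and dorsal minus ventral from -0.31 to 0.18 for Cacna1e and from -0.35 to 0.17 for Cnih3.

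Channel probes called between target and dorsal were 0, and 1 in the authors' quantile-normalized table. Between target and ventral they were 3, but 1 with the replicate block, and 1 to 3 without 1 array. Between dorsal and ventral they were 5, and 2 to 5 without 1 array. These 5 were 3 higher and 2 lower in dorsal, and with median centring 4 higher and 1 lower. Among probes above background on all 9 arrays, Scn8a kept its call between target and ventral and Scn1a kept its call between dorsal and ventral. That setting left out the called probes of Scn3b, Cacnb4, Scn10a and Cacna1g, so it could not test their calls. Beside the calls of Cacnb4, Scn8a and Fgf13 given above, the replicate block changed no call of the 12 channel and 3 partner probes it was run for. Marker genes were not run under the alternatives.

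Over all probes, 12 passed between target and dorsal (9 higher, 3 lower). This was 88 in the authors' table, 46 with an offset of 50, 20 without the filter on dim probes, 42 among probes above background on all 9 arrays, 3 with the replicate block, 17 with median centring (3 higher, 14 lower), and 1 to 4 without 1 array. Target and ventral gave 365 (239 higher, 126 lower), against 832 (431 and 401), 557, 178 with median centring, 154 with the block and 65 to 278 without 1 array. Dorsal and ventral gave 1632 (830 higher, 802 lower), against 2563 (2159 and 404) with median centring and 935 to 1451 without 1 array. A block for the slide was not run, since the headers used here give no slide. The 9 arrays limit the precision, and 23 of the 38 tested channel probes were at background on at least 1 array.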

Other observations

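Some channel probes differed between mice in the same way in several regions. Scn1a was highest in mouse 3 in all 3 regions (7.66 in dorsal, 7.82 in target and 8.93 in ventral). Cacng5 and Scn3a probe 7150142 were high in the dorsal and ventral arrays of mouse 1 (8.43 and 8.40, and 8.22 and 8.21) and not in its target array (6.11 and 6.55). These genes were singled out after their values were seen, and with 1 array per mouse and region the differences between mice were not tested.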
